A study of Mus musculus with 26 samples.

Results

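The 80 protein-coding genes of the cytosolic ribosome were followed through 5 culture conditions of mouse motor neuron spheroids. The members were chosen by name alone: rows annotated as protein-coding whose symbol was Rpl or Rps followed by a number and at most 1 further letter a, x, l or y, or was Rplp0, Rplp1, Rplp2 or Rpsa. The rule took 80 of 56941 rows and 80 of 21606 protein-coding rows, of which 49 belong to the large (60S) subunit and 31 to the small (40S) subunit. It takes no value into account. It leaves out ribosomal proteins with other kinds of name, such as Fau, Rack1 and Rps3a1, and it takes in the paralogs Rpl3l, Rpl10l, Rpl39l and Rps27l, whose products stand in for the core protein in some tissues or, for Rps27l, resemble it closely.

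The spheroids were differentiated from HBG3, a single mouse embryonic stem cell line that carries GFP under the promoter of HB9 (Mnx1), a motor neuron transcription factor. The line is labelled as coming from heterozygous blastocysts, was expanded on a feeder layer, and was turned into neurons with retinoic acid and puromorphamine. Ciliary and glial derived neurotrophic factors were added after 5 days, and spheroids of about day 8 were placed on fibrin. All groups share this line and this protocol. In the mechanical arm, spheroids on a magnetic silicone array were either moved at 4 Hz for 30 min each day (actuated array, n = 4) or kept on an array that was never moved (static array, n = 4). In the biochemical arm, groups were labelled high intensity (n = 6), low intensity (n = 6) and biochemical control (n = 6). The design text speaks of medium from optically stimulated muscle and of medium from muscle left unstimulated. It gives those samples names that appear in none of the sample titles, and nothing ties them to an intensity, so the groups are called by intensity alone. The questions were whether movement of the matrix, or medium from muscle, altered the neurons. Nothing in the labels says that libraries of a group came from separate cultures. The p-values therefore measure only the spread between these libraries, which may be technical.

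The ribosome joins its RNAs with ribosomal proteins in near-equal numbers, and cells make these proteins together. Much of this coordination lies in translation: vertebrate ribosomal protein mRNAs begin with a C followed by a run of pyrimidines, the 5′ terminal oligopyrimidine (TOP) motif, through which mTOR signalling and the RNA-binding protein LARP1 control their use by ribosomes. In neurons, growth factors and activity act on mTOR, and ribosomal protein mRNAs are known among the mRNAs of axons and dendrites. RNA sequencing measures the amount of these mRNAs and not their translation.

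The start sites below are shown because the TOP motif is what most members are known to share and the selection did not use it. The RefSeq promoter table for GRCm38.p6 held 72 windows for 60 of the 80 members. Each window runs 5′ to 3′ on the gene's strand from 15 bases before to 15 bases after the point at which the annotated transcript starts. Capitals mark a C at the first transcribed base and the run of C or T that follows it, where at least 4 such bases followed. The first group holds such a run.
Rps6, chr4:86857353-86857382, minus strand: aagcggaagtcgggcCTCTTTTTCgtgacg
Rpl35, chr2:39005117-39005146, minus strand: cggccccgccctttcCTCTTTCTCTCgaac
Rpl28, chr7:4792950-4792979, plus strand: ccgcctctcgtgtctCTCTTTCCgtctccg
Rps27, chr3:90213634-90213663, minus strand: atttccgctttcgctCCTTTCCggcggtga
Rplp2, chr7:141447636-141447665, plus strand: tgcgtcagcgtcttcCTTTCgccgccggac
Rps18, chr17:33955651-33955680, minus strand: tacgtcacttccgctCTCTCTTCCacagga
The next 3 are members described below for their counts, chosen after their values were seen, and hold no such run at the annotated base. Among other members described below, Rpl14 holds a run and Rps21 holds one at 1 of its 2 annotated starts. Rpl35, Rps6, Rps27 and Rplp2, also described below, stand in the first group.
Rpl12, chr2:32961697-32961726, plus strand: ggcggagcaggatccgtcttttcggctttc
Rpl10, chrX:74270801-74270830, plus strand: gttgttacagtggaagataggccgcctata
Rps9, chr7:3704026-3704055, plus strand: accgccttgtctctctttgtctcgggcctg

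A run of this kind at the annotated start stood in 13 of the members' 72 windows (18.1%) and in 823 of all 32851 windows of the table (2.51%). The letters CTTTC, looked for anywhere in the same 30-base windows, stood in 23.6% of the members' windows and in 4.05% of all windows on the gene's strand. On the other strand CTTTC stood in 2.78% and 3.60%. The 2 searches overlap, since a run can hold these letters. The windows of Rpl12 and Rps9 hold pyrimidine stretches a few bases from the annotated start, and a start annotated some bases away moves a run out of reach of the search.

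Depth set what could be seen. The 26 libraries held 1536 to 13162635 counts. In 5 of them protein-coding genes had under 1000000 counts: static-array replicate 3, high-intensity replicates 4 and 5, low-intensity replicate 6 and control replicate 4, and low-intensity replicate 6 held 1 count on all members. The comparisons below use the other 21 libraries, called the deeper libraries (5 control, 5 low intensity, 4 high intensity, 3 static and 4 actuated), and values over all 26 are given beside them. Among the 8 motor neuron markers looked for, all 8 were found: Mnx1 averaged 5.88 to 9.40 CPM (counts scaled to a common library total) across groups, while Lhx3 averaged 1.11 to 2.33 CPM. Gfap, a marker of astrocytes, averaged 1516 to 2410 CPM. Summed CPM of 8 genes of dividing cells was 211 to 271 in the controls, 236 to 680 at low intensity, 345 to 1022 at high intensity, 327 to 495 on the static array and 299 to 478 on the actuated array. In such bulk samples, fewer cells of a type and less RNA per cell cannot be told apart.

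The members were abundant in every group, and their share of the protein-coding counts overlapped between all groups. The share was 2.35%, 2.34%, 2.41%, 2.20% and 2.29% in the 5 controls (mean 2.32% ± 0.08, SD). At low intensity it was 2.49%, 2.58%, 2.17%, 2.34% and 2.76%, and at high intensity 2.11%, 2.46%, 3.02% and 2.14%. On the static array it was 2.28%, 2.77% and 2.79%, and on the actuated array 2.26%, 2.28%, 2.51% and 2.50%. With all counts in place of protein-coding counts as denominator, the share was 1.73% to 1.84% in the controls, below every low-intensity (1.86% to 2.25%), static (2.01% to 2.39%) and actuated library (2.003% to 2.172%), while high intensity (1.70% to 2.31%) overlapped the controls. As shares of protein-coding counts the ranges of all 5 groups overlap, and the spread within the high-intensity group, whose replicate 3 is the highest library of all, exceeds every difference between group means. High-intensity replicate 3 also had the highest summed CPM of dividing-cell genes (1022), and the part of such cells in its ribosomal protein share was not tested.

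The deposited TPM values (which divide by transcript length and by the total over all transcripts in the library) gave another picture of the same libraries. The members' share of total TPM was 2.27%, 2.85%, 3.65%, 3.99% and 3.18% in the 5 controls, and 4.24% to 6.41% in the other 16 deeper libraries, so the controls lay below all of them without overlap. The rows of 7SL RNA, the RNA of the signal recognition particle (Rn7s1 and Rn7s2), took 27.8% to 61.0% of TPM in the controls, 11.9% to 19.9% at low intensity, 12.1% to 32.7% at high intensity, 19.2% to 30.2% on the static array and 14.7% to 26.9% on the actuated array. Protein-coding genes together took 24.1% to 44.5% of TPM in the controls and 40.1% to 66.9% elsewhere. As a share of protein-coding TPM alone, the members made up 7.67% to 9.43% in the controls, 8.40% to 9.84% at low intensity, 7.92% to 10.6% at high intensity, 8.89% to 9.995% on the static array and 8.92% to 9.51% on the actuated array. On that scale the groups overlap again.

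**Figure D1:**
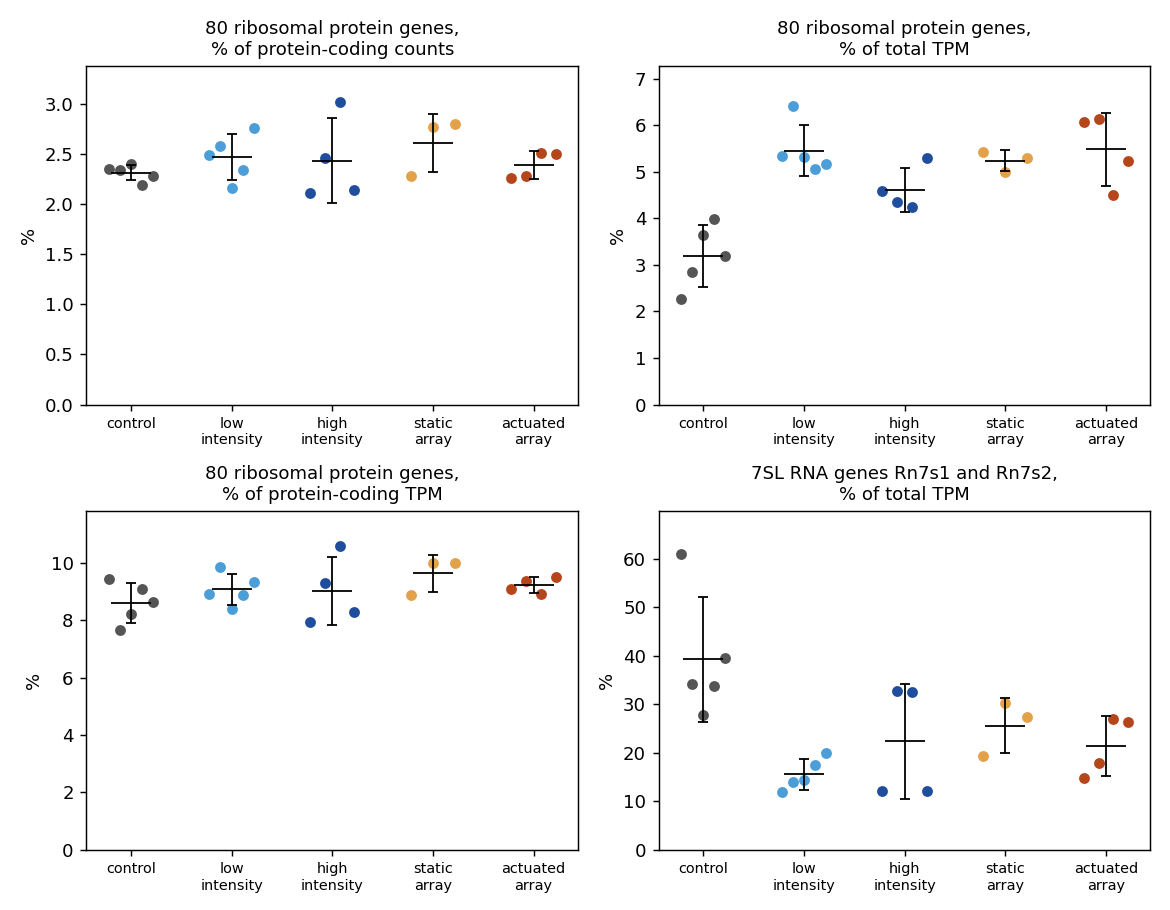
Share of the 80 ribosomal protein genes in the protein-coding counts (top left), in total TPM (top right) and in protein-coding TPM (bottom left), and share of the 7SL RNA rows Rn7s1 and Rn7s2 in total TPM (bottom right), in percent, for each of the 21 deeper libraries. Points are libraries, the long bar is the group mean and the whiskers are the SD. Of the 3 ribosomal protein shares drawn, the controls stand below the other groups without overlap in total TPM alone, at 2.27% to 3.99%, and they have the highest 7SL mean.

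Levels of the members ranged widely, and their order was much the same in every group. On the TPM scale, which corrects for length, the highest control means belonged to Rpl26 (1708 TPM ± 499, SD, n = 5), Rpl13a (1692 ± 593), Rpl23a (1659 ± 324) and Rplp1 (1500 ± 512). Rpl26 and Rpl23a lie around the exit of the peptide tunnel, Rplp1 belongs to the stalk that recruits elongation factors, and Rpl13a also acts outside the ribosome in the control of inflammatory mRNAs. These 4 means differ by less than their SDs. At the lower end stood Rps20 (72.1 TPM, SD 26) and Rps27l (17.1 ± 7.1), and Rpl10l, Rpl39l and Rpl3l were listed at 0 in all 5 controls. Rps20 and Rps27l are separated by more than their spread.

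Over the 77 members with at least 10 TPM in the controls, log2 mean TPM correlated with that of the controls at Pearson r between 0.979 and 0.985 and Spearman rho between 0.972 and 0.978 in the 4 other groups, a description across genes, which are not independent and share each library's scaling. All 77 had a higher mean TPM in each of the other groups than in the controls, with median log2 differences of 0.79 at low intensity, 0.61 at high intensity, 0.72 on the static array and 0.78 on the actuated array. The 7SL share of control TPM, described above, was larger on average than in the other groups. No shift of this size was seen on the TMM-scaled counts.

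**Figure D2:**
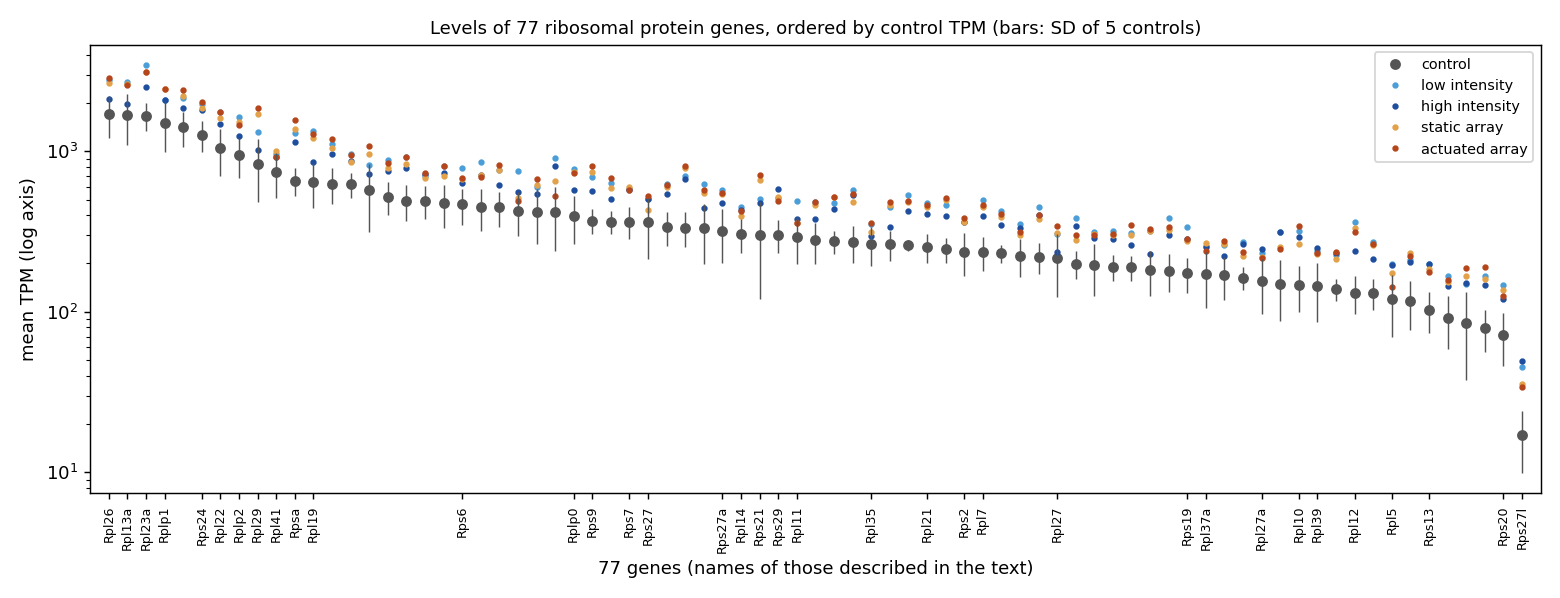
Mean TPM of the 77 ribosomal protein genes with at least 10 TPM in the controls, on a log axis, ordered by the control mean (large grey points, bars the SD of the 5 controls), with the means of the other 4 groups as small coloured points and names on the genes the text describes. The order is shared and every coloured point lies above its grey point, from Rpl26 at 1708 TPM to Rps27l at 17.1 TPM in the controls.

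Stability differed between members. The smallest SD of log2 CPM over the 21 deeper libraries belonged to Rpl21 (0.12), Rps2 (0.14) and Rps24 (0.14). Rps2 lies at the mRNA entry of the 40S subunit, to which Rps24 also belongs, and Rpl21 is a 60S protein. Rpl21 had group means of 329 to 361 CPM and Rps24 of 504 to 530 CPM. The largest SDs among members with a mean of at least 5 CPM belonged to Rps27l (0.53), Rps21 (0.52) and Rpl5 (0.47). Rpl5 binds 5S rRNA together with Rpl11 and, free of the ribosome, both bind the p53 regulator Mdm2. Rpl5 was at 172, 486, 328, 139 and 241 CPM in the controls, a spread that takes in all other libraries. Rpl11 was at 147, 301, 172, 123 and 160 CPM in the controls, with replicate 2 the highest for both genes. Rps21 was lowest in that same library, at 22.8 CPM against 61.9 to 95.9 CPM in the other 4 controls.

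Differences between groups were tested gene by gene on the counts with edgeR's quasi-likelihood test, with Benjamini-Hochberg adjustment over the 14730 genes that passed a low-count filter. Of the 80 members 78 passed, and Rpl3l and Rpl39l did not. A gene is called where the adjusted p is under 0.05, and fold changes are log2 with their standard error (SE). The comparisons of high intensity, low intensity and static array with the controls share the same 5 control libraries. They are given side by side and not set against each other.

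Actuation of the array gave no called member by edgeR, DESeq2 or limma voom. By edgeR no member was called against the static array, and no gene of any kind was (0%). DESeq2 called 0 members and 6 genes, and limma voom 0 and 0. Over all 26 libraries again 0 members and 0 genes were called (0%). In the edgeR fit of the deeper libraries over all 5 groups, no member had an unadjusted p under 0.05, against 0.17% of all genes higher and 0.21% lower. With only the 2 groups fitted in edgeR 3 members had such a p, and with no low-count filter 3. With replicate number as a block 1 member had such a p, and with limma voom 4. No member's 2 groups were free of overlap, against 2.1% of genes higher and 2.23% lower. The members nonetheless leaned one way: 73 of 78 had a negative log2 fold change, with a median of -0.13, against 7377 negative of 14730 genes and a median of 0.00. Leaving out static-array replicate 1 moved this median to -0.20, and leaving out any other single library of both groups kept it between -0.15 and -0.08. The lean was absent over all 26 libraries, where 42 of 78 were positive (median 0.00), and in the deposited TPM, where 54 were positive (median 0.05, with 0.11 for all genes). After rescaling to protein-coding TPM, 19 were positive (median -0.06). For 76 of 78 members the 95% interval of the log2 fold change lay within 1 of zero, and for 49 within 0.5. Some other lists leaned as well: 31 of 34 nuclear genes of the respiratory chain, 63 of 78 mitochondrial ribosomal proteins and 25 of 30 ribosome assembly factors had negative values. Of 7 tested ribosomal proteins outside the naming rule 6 were negative (median -0.17). Of 14 other TOP mRNAs 7 were negative.

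The smallest p in this comparison was that of Rpl37a, a zinc-binding protein of the 60S subunit. It was at 59.8, 57.0, 78.0 and 71.3 CPM on the actuated array and at 75.1, 95.5 and 83.6 CPM on the static array. The groups overlap, and the log2 fold change was -0.35 ± 0.19 (SE, with adjusted p = 1 by edgeR). Rps7, a 40S protein, had -0.23 (SE 0.13) and Rpl23a -0.20 (SE 0.13). Rpl10, which joins the 60S subunit late in its assembly, had the smallest p of the few positive members, with 159, 146, 195 and 164 CPM on the actuated against 138, 132 and 152 CPM on the static array. Its log2 fold change was 0.24 ± 0.15 (SE, with adjusted p = 1 by edgeR), and these groups overlap too. Rps27 (0.07, SE 0.18) and Rpl13 (0.03) completed the positive members with the smallest p. With limma on log2(TPM + 1), 0 members and 0 genes (0%) were called higher, and after rescaling to protein-coding TPM again 0 members and 0 genes (0%).

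At high intensity edgeR called no member in the deeper libraries. On the same counts DESeq2 called 1 member and 467 of 14730 genes, and edgeR with no low-count filter 1 member and 700 of 37248 genes. Of 78 tested, edgeR called 0, while it called 68 of 14730 genes (0.462%), and over all 26 libraries 0 members and 6 genes were called (0.0402%). At an unadjusted p under 0.05 there were 12 members higher and 2 lower, against 8.67% and 7.28% of all genes. The 12 include Rpl10l, which held 0 counts in all controls and passed the filter only through the libraries where it was found. No member's groups were free of overlap, against 2.07% of genes higher and 1.49% lower. The median log2 fold change of the members was 0.05 (48 positive, 30 negative) against 0.00 for all genes. It was -0.05 without high-intensity replicate 3 and -0.11 over all 26 libraries, so no direction can be given. By subunit, 9 of 31 members of the 40S subunit had an unadjusted p under 0.05 and were higher, against 3 of 47 members of the 60S subunit, Rpl10l among the 3, a difference that was not tested. At low intensity these counts were 5 of 31 and 6 of 47, and on the static array 5 of 31 and 9 of 47. For high intensity over all 26 libraries, 1 member in either direction had such a p, and with limma voom 3.

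Rpl10 led the members that were higher. It was at 135, 148, 204 and 143 CPM at high intensity and at 107, 105, 101, 126 and 136 CPM in the controls. High-intensity replicate 1 lies just below the highest control, and the other 3 lie above all controls. On the log2 scale the difference was 0.45 ± 0.14 (SE), with an edgeR adjusted p of 0.113. It was 0.30 (adjusted p = 0.412) without high-intensity replicate 3. DESeq2 gave it an adjusted p of 0.0487, and with limma voom the difference was 0.30 (adjusted p = 0.490). Rps27l, a paralog of Rps27 known as a target of p53, was at 12.4, 10.9, 23.7 and 8.27 CPM at high intensity and at 5.18, 5.96, 5.38, 5.62 and 10.1 CPM in the controls. The log2 difference came to 1.08 ± 0.35 (SE) with an edgeR adjusted p of 0.126, and to 0.69 (edgeR adjusted p = 0.479) without high-intensity replicate 3. Of 14 genes of p53 and its targets, 0 were called in this comparison and their median was 0.23. Rps27 itself, with 57.8, 68.5, 79.7 and 67.5 CPM against 70.7, 50.5, 68.1, 77.2 and 63.2 CPM, had a log2 fold change of 0.05 (SE 0.17).

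Rps13, a 40S protein, was at 66.3, 69.7, 92.8 and 54.8 CPM at high intensity and at 55.5, 44.2, 43.5, 54.3 and 56.5 CPM in the controls, with 3 libraries above all controls and replicate 6 among them (log2 fold change 0.48, SE 0.16, edgeR adjusted p = 0.145). Rpl35, which lies at the exit of the peptide tunnel, had the smallest p among the lower members. It was at 183, 177, 240 and 163 CPM at high intensity and at 219, 322, 331, 213 and 209 CPM in the controls. High-intensity replicate 3 lies above 3 of the controls, and the other 3 lie below all of them. The log2 fold change was -0.44 ± 0.17 (SE, with adjusted p = 0.206 by edgeR). Rpl27 (-0.37, SE 0.17) and Rpl13a (-0.34, SE 0.19) were the next lower members. The genes of dividing cells Mki67 (log2 fold change 1.31, SE 0.26, edgeR adjusted p = 0.0364) and Top2a (1.30, SE 0.29, edgeR adjusted p = 0.0448) were called higher in the same comparison. Summed mesenchymal markers, all 8 detected, were 952 to 2423 CPM at high intensity and 393 to 939 CPM in the controls, without overlap, and 8 of 8 were positive (median log2 fold change 1.11, 0 called). Of 8 pan-neuronal markers 8 were negative and 5 of them had an unadjusted p under 0.05, with sums of 2470 to 3682 CPM against 3548 to 3874 CPM in the controls. The part of these cells in the members' values was not tested.

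The deposited TPM called many members in this comparison. With limma on log2(TPM + 1), 46 members were called higher and 0 lower, against 15.7% of all genes called higher. The median was 0.65 for the members and 0.53 for all genes on that scale. After rescaling each library to its protein-coding TPM, 0 members were called, against 0.17% of genes called higher, and the medians were 0.16 and 0.13.

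Low intensity gave the only member called in the edgeR fit described above on the 21 deeper libraries, Rpl12. There 1 of 78 members was called, against 88 of 14730 genes (0.597%), and over all 26 libraries 0 members and 4 genes (0.0268%). At an unadjusted p under 0.05, 11 members were higher and 0 lower, against 8.57% and 6.61% of all genes. Rpl7 alone had groups that did not overlap (1 of 78 higher, 0 lower), against 1.28% of genes higher and 0.971% lower, which is the background share. The median log2 fold change of the members was 0.10 (55 positive, 23 negative) against -0.01 for all genes. Over all 26 libraries it was -0.06, against -0.05 for all genes. Leaving out only low-intensity replicate 6, which held 1 count on all members, gave 0.08 with 54 of 78 positive, against 0.03 for all genes.

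Rpl12 lies at the base of the ribosomal stalk, next to Rplp0, where elongation factors bind. It was at 223, 212, 136, 160 and 209 CPM at low intensity and at 109, 117, 144, 88.4 and 127 CPM in the controls. Low-intensity replicate 3 lies below the highest control, and the other 4 lie above all controls. The means were 188 CPM ± 37.7 (SD, n = 5) and 117 ± 20.7 (SD, n = 5), with a log2 fold change of 0.68 (SE 0.16, 95% interval 0.36 to 1.01, edgeR adjusted p = 0.0420). The call was lost without control replicate 1, 2 or 5 or without low-intensity replicate 1, 2 or 5, with edgeR adjusted p between 0.0605 and 0.128. It was also lost over all 26 libraries (log2 fold change 0.42, edgeR adjusted p = 1.00) and with limma voom (0.67, adjusted p = 0.172). The 3 low-intensity libraries highest in Rpl12 (replicates 1, 2 and 5) had a summed CPM of 680, 402 and 649 for the genes of dividing cells, the other 2 had 236 and 312, and the controls 211 to 271. All 8 of these marker genes were detected in both groups, Top2a was called higher (log2 fold change 1.28, SE 0.28, edgeR adjusted p = 0.0372), and the neuronal Elavl4 was called lower (-0.59, SE 0.13, edgeR adjusted p = 0.0370). The part of dividing cells in the Rpl12 value was not tested.

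The partners of Rpl12 in the stalk were not called. Rplp0 was at 987, 721, 633, 574 and 694 CPM at low intensity and at 760, 450, 504, 753 and 600 CPM in the controls (log2 fold change 0.24, SE 0.17). Rplp1 had -0.20 (SE 0.14) and Rplp2 0.07 (SE 0.16). Rpl7, named after its values were seen because its groups alone did not overlap, was at 362, 455, 326, 366 and 383 CPM at low intensity and at 311, 305, 298, 325 and 272 CPM in the controls. The lowest library at low intensity lies just above the highest control, and the log2 fold change was 0.32 ± 0.10 (SE, with adjusted p = 0.123 by edgeR). Rpl23a was at 1071, 1032, 882, 859 and 1043 CPM against 840, 751, 883, 668 and 725 CPM (log2 fold change 0.34, SE 0.11, edgeR adjusted p = 0.116). Low-intensity replicates 3 and 4 lie below the highest control. Rpl35 (-0.31, SE 0.16) and Rpl41 (-0.35, SE 0.22), the latter the smallest ribosomal protein, had the smallest p among the lower members.

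On the TPM scale low intensity again stood apart from the controls in nearly every member. With limma on log2(TPM + 1), 69 of 78 members were called higher and 0 lower, against 36.8% of all genes called higher, with medians of 0.82 and 0.64. After rescaling to protein-coding TPM, 0 members were called, against 0.0883% of genes called higher, and the medians were 0.11 and 0.03. Rpl12 kept a log2 difference of 0.75 on the rescaled values (limma adjusted p = 0.0542).

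**Figure D3:**
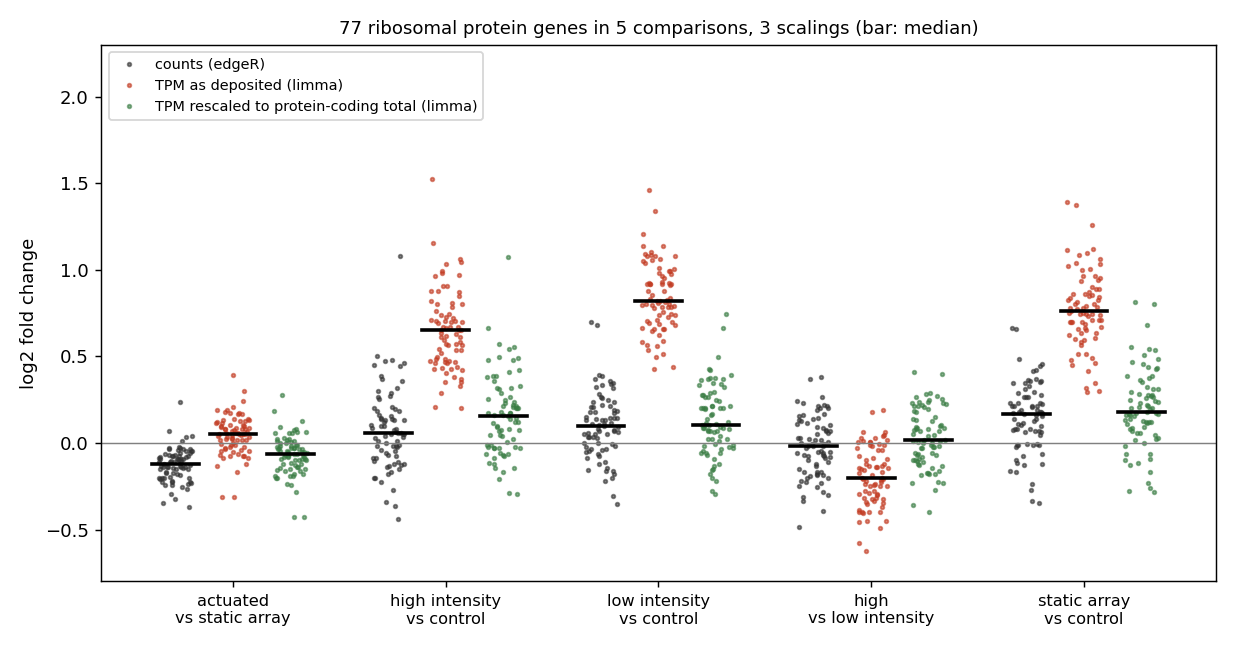
Log2 fold change of 77 ribosomal protein genes in the 5 comparisons, from counts (grey, edgeR), deposited TPM (red, limma on log2(TPM + 1)) and TPM rescaled to the protein-coding total (green, limma), each point 1 gene and each bar a median. Rpl10l is left out because its controls hold 0 counts. The red points lie above zero in the 3 comparisons with the controls, with medians over all 78 members of 0.65, 0.82 and 0.77, while the grey and green points lie nearer to zero.

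In the edgeR fit described above, high and low intensity did not differ in any called member. By edgeR 0 members and 0 genes (0%) were called, and over all 26 libraries again 0 and 0 (0%). At an unadjusted p under 0.05 there were 1 member higher and 5 lower, against 3.62% and 4.06% of all genes. No member's groups were free of overlap, against 1.28% of genes higher and 1.35% lower. The members' median log2 fold change was -0.02 (35 positive, 43 negative), and without high-intensity replicate 3 it was -0.14. DESeq2 called 0 members and 40 genes. With no low-count filter edgeR called 1 member, lower at high intensity, and 126 of 37248 genes. Rpl19, a 60S protein that takes part in a bridge between the subunits, had the smallest p. It was at 382, 395, 511 and 392 CPM at high intensity and at 601, 700, 487, 475 and 669 CPM at low intensity. Only high-intensity replicate 3 reaches into the low-intensity range. The log2 fold change was -0.48 (SE 0.14, 95% interval -0.77 to -0.20, edgeR adjusted p = 0.338). The controls were at 360, 547, 540, 478 and 382 CPM. Low-intensity replicates 1, 2 and 5 lie above the highest of them. Rpl23a had -0.29 (SE 0.11) and Rpl12 -0.39 (SE 0.17), while Rps29, a zinc-binding 40S protein, had 0.37 (SE 0.17), Rpl27a 0.27 (SE 0.16) and Rps7 0.17 (SE 0.11). With limma on log2(TPM + 1), 0 members were called higher, against 0.0136% of genes, and after rescaling 0 members, against 0.00679% of genes.

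The static array differed from the controls in the direction of higher values for many members, without a call by edgeR. On the same counts DESeq2 called 2 members and 381 of 14730 genes, and limma voom 1 member and 151 genes. With no low-count filter edgeR called 9 members and 459 of 37248 genes. This comparison crosses the 2 arms of the study, so array, platform and whatever else separates the arms cannot be told apart, and the static libraries were deeper (7724923 to 13162635 counts) than the controls (2273487 to 3771637 counts). Of 78 members edgeR called 0, against 105 of 14730 genes (0.713%), and over all 26 libraries 0 members and 2 genes (0.0134%). At an unadjusted p under 0.05, 14 members were higher and 0 lower, against 6.1% and 6.46% of all genes. In 11 of 78 members (14.1%) the 3 static libraries lay above all 5 controls and in 1 (1.28%) below, against 4.52% and 3.62% of all genes. The 11, like the 14, include Rpl10l, whose controls hold no counts. The median log2 fold change was 0.17 (59 positive, 19 negative) against 0.00 for all genes. Without static-array replicate 1 it was 0.26, and over all 26 libraries it was 0.01 with 43 of 78 positive. All genes had a median of 0.09 over the 26 libraries, above that of the members. In the deeper libraries, ribosomal proteins outside the naming rule had 3 of 7 positive (median -0.06). Of 34 nuclear genes of the respiratory chain 24 were positive (0.15), and of 78 mitochondrial ribosomal proteins 51 (0.13).

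Rpl29 had the smallest p. It was at 505, 647 and 564 CPM on the static array and at 468, 360, 371, 488 and 402 CPM in the controls, without overlap. The log2 fold change was 0.45 ± 0.12 (SE, with adjusted p = 0.0611 by edgeR). It passed the threshold without control replicate 5 (0.51, edgeR adjusted p = 0.0440), with limma voom (0.41, adjusted p = 0.0380) and with DESeq2 (0.43, adjusted p = 0.0123). Mice can live without Rpl29, which belongs to the 60S subunit. Rpl12 was at 165, 205 and 185 CPM against the same controls as above (88.4 to 144 CPM), also without overlap, with a log2 fold change of 0.66 ± 0.18 (SE, with adjusted p = 0.0764 by edgeR). Rps9, a protein at the mRNA entry of the 40S subunit, was at 300, 344 and 382 CPM against 291, 219, 271, 221 and 251 CPM (0.45, SE 0.13, edgeR adjusted p = 0.114).

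Rpsa, which is also known as the precursor of a laminin receptor, was at 1123, 1230 and 1242 CPM on the static array and at 944, 812, 921, 894 and 921 CPM in the controls (log2 fold change 0.42, SE 0.14, edgeR adjusted p = 0.177). On the actuated array it was at 1093, 1130, 1250 and 1217 CPM, inside or beside the static range (actuated against static -0.03, SE 0.15). Rpl35 was the member that lay lower without overlap, at 196, 205 and 208 CPM against 209 to 331 CPM (-0.35, SE 0.19, edgeR adjusted p = 0.459). Its highest static value lies just below the lowest control. Rps27 (-0.27, SE 0.18) and Rpl14 (-0.24) were the next lower members. With limma on log2(TPM + 1), 42 members were called higher and 0 lower, against 7.38% of genes called higher, with medians of 0.77 and 0.50. After rescaling to protein-coding TPM, 0 members were called, against 0.0747% of genes, with medians of 0.19 and 0.03. Of 8 motor neuron markers 7 were tested, of which 5 were negative and 2 positive on the static array. Their sums overlapped, at 548 to 675 CPM there and 599 to 866 CPM in the controls. Among them only the choline transporter gene Slc5a7 was called, lower on the static array (-1.88, SE 0.31, edgeR adjusted p = 0.00392). Summed glial markers were 2529 to 3302 CPM on the static array and 1465 to 2080 CPM in the controls. The part of glial cells in the members' values was not tested.

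**Figure D4:**
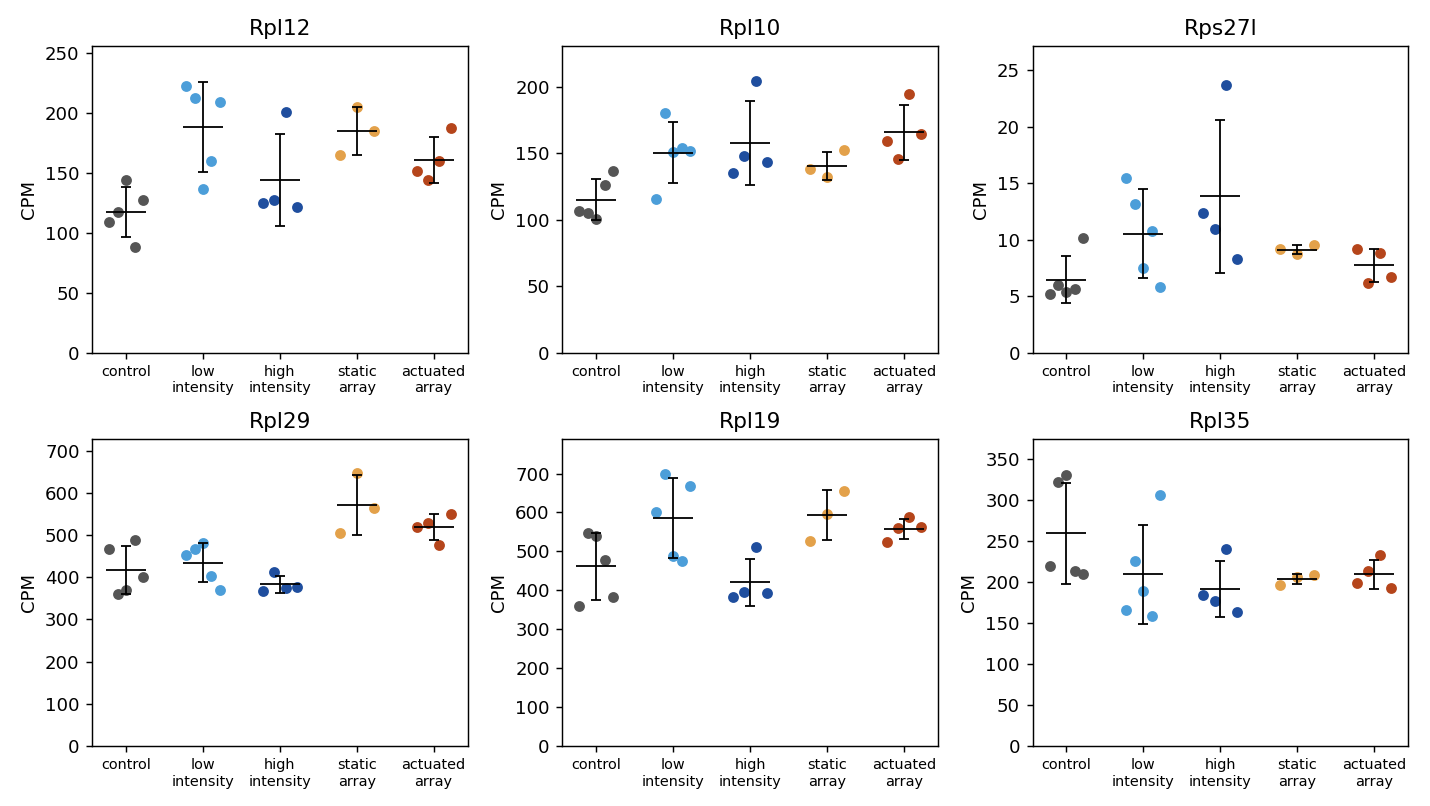
CPM of Rpl12, Rpl10, Rps27l, Rpl29, Rpl19 and Rpl35 in each of the 21 deeper libraries by group, with group means (long bars) and SDs (whiskers). Rpl12 lies highest at low intensity (mean 188 CPM) and on the static array (185 CPM) and lowest in the controls (117 CPM), and high-intensity replicate 3 is the top point of its group in 5 of the 6 panels.

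Among the remaining members of known individual interest, the edgeR fit described above made no call on the counts of the deeper libraries in any comparison. Rps6, whose phosphorylation by S6 kinases is the usual readout of mTOR activity, was at 339, 523, 404, 397 and 381 CPM in the controls, with group means of 366 to 430 CPM and log2 fold changes between -0.19 and 0.07. Rps19, the gene most often altered in Diamond-Blackfan anaemia, was at 114, 124, 99.6, 121 and 135 CPM in the controls and had a log2 fold change of 0.31 at low intensity (SE 0.12, adjusted p = 0.211 by edgeR) and of 0.27 at high intensity (SE 0.13, adjusted p = 0.310 by edgeR). Rpl22, an RNA-binding 60S protein, had group means of 390 to 430 CPM. Rps27a, whose product is made as a fusion with ubiquitin, had group means of 226 to 254 CPM. Rpl39, a small protein lining the peptide tunnel, had group means of 74.5 to 93.0 CPM, with the highest at high intensity (log2 fold change against control 0.30, SE 0.18).

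Of the paralogs known from muscle and testis, Rpl3l and Rpl39l were nearly silent, and Rpl10l ranged from 0 to 5.0 CPM in the deeper libraries. Rpl3l, a muscle form of Rpl3, had 1 count in high-intensity replicate 1, 1 in replicate 5 and 0 in the other 24 libraries. Rpl39l, a form known from testis, had 2 counts in each of actuated replicates 3 and 4 and 0 in the rest. A count of 0 in a deeper library allows up to 0.228 to 1.93 CPM (3 counts, counting error only). Rpl10l, a retrogene of the X-linked Rpl10 known from male germ cells, had 0 counts in all 6 controls. It had 20 and 3 counts in high-intensity replicates 1 and 2 and 1 in replicate 5, 2, 57, 8 and 26 counts in the static libraries, and 0, 0, 28 and 1 in the actuated ones. At low intensity replicates 4 and 5 had 1 count each. The static and actuated libraries are the deepest, the values differ many-fold within groups, and Rpl10l is nearly identical to Rpl10 in sequence, so reads could be divided between them in a way that is not given in the sources used here. No fold is given for it, since all its controls stand at 0.

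Ribosomal protein genes have many processed copies in the genome. The table held 319 pseudogene rows named after a member, for 62 of the 80 members. In the deeper libraries these rows held 1.46% to 3.61% as many counts as the members did, and adding them to their members left the counts of called members as they were (0, 0, 1, 0 and 0 in the order of the comparisons above).

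Genes that work with the ribosome showed no call either. Of 7 tested ribosomal proteins outside the naming rule, 14 other mRNAs with a TOP motif (such as Eef1a1, Eef2, Tpt1 and Npm1), 30 ribosome assembly factors, 11 genes of the RNA polymerase I machinery and 18 regulators of TOP mRNAs and growth (such as Mtor, Larp1 and Myc), 0 were called in each of the 5 comparisons. At low intensity the other TOP mRNAs had a median log2 fold change of 0.21, with 13 of 14 positive and 7 with an unadjusted p under 0.05 and higher. The assembly factors had 0.27 there, with 24 of 30 positive and 9 such genes. Over all genes in that comparison 8.57% were higher at that p, and 7226 of 14730 were positive. Against the same controls at high intensity these medians were 0.08 and 0.05, and on the static array 0.04 and 0.12. All 8 genes of dividing cells were positive at low intensity (median 1.40). The part of dividing cells in the low-intensity values of the TOP mRNAs and assembly factors was not tested. Mitochondrial ribosomal proteins, a separate set of 78 genes for the organelle's own ribosome, had medians of 0.02 at low intensity, 0.02 at high intensity and 0.13 on the static array, and 0 of 78 were called in every comparison.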

How the data were processed

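The authors deposited expected counts (estimated counts per gene, written as whole numbers, unscaled) and TPM values for 26 libraries. Per the submitters' processing notes, STAR, Salmon, BWA 0.7.12-r1039 and bedtools 2.25.0 and the builds mm10, hg19 and GRCm39 were named, without their roles, and the handling of strand and of near-identical copies is not given in the sources used here. Per the labels' protocols, libraries came from fragmented total RNA with cleavage of rRNA-derived fragments after PCR, and no molecular identifiers are mentioned.

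Counts were rounded and fitted in edgeR 4.0.16 (R 4.3.3) over all 5 groups of the 21 libraries with at least 1000000 protein-coding counts (filterByExpr, TMM, quasi-likelihood F-test, threshold 0.05). CPM are TMM-scaled. Standard errors follow from fold change and F statistic. DESeq2 1.42.0, limma 3.58.1 (voom, and log2(TPM + 1) or log2(TPM + 0.1)), all 26 libraries, other scalings and filters, pseudogene rows added, a replicate block and leaving out each library were alternatives. Rescaling to protein-coding TPM and leaving out only low-intensity replicate 6 were chosen after seeing the data. The scripts were tested on simulated data. No 2 libraries of a group agreed within sampling noise (lowest chi-square per degree of freedom 4.74). The members, gene lists and tests were chosen with earlier results of these data known. Named genes are the called members or, failing those, the 3 smallest p per direction and comparison at 5 CPM or more, the 5 highest and 5 lowest in control TPM, the 3 most and least variable, and a set of well-known members and paralogs. Some genes this rule names are not reported here. Marker lists had 8 genes each; summed CPM over the deeper libraries was 373 to 866 for motor neuron, 2470 to 3874 for pan-neuronal, 86.3 to 2607 for mesenchymal, 4.86 to 171 for skeletal muscle, 1465 to 3594 for glial and 4.23 to 28.8 for pluripotent markers.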

Additional observations from a re-analysis of the deposited data

Results flagged for a closer look

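Within groups of 4 or 5 deeper libraries, a library was singled out where its gap to the nearest other value, divided by the range of its group, exceeded Dixon's 95% critical value. Of 160 groups of values tested, 11 had such a library, and chance alone marks about 1 in 20 groups. High-intensity replicate 3 was the highest of its group for Rpl12 (201 CPM against 122 to 127 CPM), Rpl19 (511 against 382 to 395), Rplp2 (418 against 321 to 332) and Rps6 (480 against 338 to 352). High-intensity replicate 2 was the highest for Rpl29 (413 against 369 to 376) and Rps7 (440 against 352 to 363). Control replicate 2 was the highest control for Rpl11 (301 against 123 to 172) and the lowest for Rpl21 (282 against 350 to 363), and control replicate 6 was the highest for Rps27l (10.1 against 5.18 to 5.96). Low-intensity replicate 2 was the highest of its group for Rps21 (113 against 61.7 to 70.8) and for the members' share of TPM (6.41% against 5.05% to 5.33%).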

How the results depend on the processing

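The called members numbered 0, 0, 1, 0 and 0 for actuation (actuated minus static array), for high and then low intensity over the controls, for high over low intensity, and for the static array over the controls. For high intensity against control the count became 1 with no low-count filter (700 of 37248 genes) and 1 with DESeq2 (467 of 14730). It became 46 on log2(TPM + 1) and 46 on log2(TPM + 0.1), with 2324 and 2292 genes called. For low intensity it became 0 over all 26 libraries, without low-intensity replicate 6 only, and with limma voom. It was also 0 with only the 2 groups fitted, with the replicate block and on TPM rescaled to protein-coding genes. It became 2 with DESeq2 (470 of 14730 genes), and 69 on both TPM scales (5440 and 5537 genes). For high against low intensity it became 1 with no low-count filter (126 of 37248 genes). For static array against control it became 9 with no low-count filter (459 of 37248 genes) and 1 with a filter of 1 CPM in 4 libraries (101 of 17576). It became 2 with DESeq2 (381 of 14730), 1 with limma voom (151 genes) and 2 at an adjusted p under 0.1. On the TPM scales with pseudocounts of 1 and 0.1 it became 42 and 44 (1091 and 1145 genes).

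The members' median log2 fold change moved on log2(TPM + 1) and log2(TPM + 0.1) to 0.65 and 0.65 for high intensity, 0.82 and 0.82 for low intensity, -0.20 and -0.20 for high against low intensity, and 0.77 and 0.77 for static array. Leaving out each library in turn gave medians of -0.20 to -0.08, -0.05 to 0.15, 0.05 to 0.15, -0.14 to 0.06 and 0.14 to 0.26, and counts of 0 to 0, 0 to 0, 0 to 1, 0 to 0 and 0 to 1, in the order above. With all counts as denominator, the members' share was 1.77% in controls, 2.07% at low intensity, 1.97% at high intensity, 2.26% on the static and 2.08% on the actuated array. As a share of protein-coding counts over all 26 libraries it was 2.41% in controls and 2.07% at low intensity. Those 2 means take in control replicate 4 (2.89%) and low-intensity replicate 6 (0.0869%, 1 count on members among 1151). The deeper low-intensity libraries were at 2.17% to 2.76%.

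Members lower on counts turned positive on log2(TPM + 1) and log2(TPM + 0.1), where all genes had positive medians: at high intensity Rpl35 (0.20 and 0.20), Rpl27 (0.21 and 0.21) and Rpl13a (0.29 and 0.29), at low intensity Rpl35 (0.44 and 0.44), Rpl41 (0.42 and 0.43) and Rplp1 (0.51 and 0.51), on the static array Rpl35 (0.29 and 0.29), Rps27 (0.30 and 0.30) and Rpl14 (0.41 and 0.41). Leaving out single libraries gave Rps27 -0.0069 (without static-array replicate 2) to 0.16 (without replicate 4) for actuation. Without low-intensity replicate 6 only, Rpl27a turned to -0.013 and Rps7 to -0.13 for high against low intensity. The cause of these changes was not tested.

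Replicate numbers gave no sign of pairing in the biochemical arm. There, deviations from the group means of same-numbered libraries correlated at -0.03 on average over 11 pairs, and those of 54 other pairs at 0.01. In the array arm the average was 0.07 over 3 same-numbered pairs (-0.12 to 0.18). Of these, 2 exceeded 0.1, against 1 of 9 other pairs, and 3 pairs are too few to decide. The replicate block changed the count of called members only for low intensity (0, Rpl12 0.76, edgeR adjusted p = 0.200).

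Depth limits Rpl3l, Rpl39l and Rpl10l, and 3 static libraries limit every array comparison.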
